A study of Danio rerio with 12 samples.

Results

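Injured tissue from wild-type (*myd88*+/+) zebrafish hearts was compared between 24 and 1 hours post cryoinjury (hpci). The comparison holds 4 of the 12 bulk RNA-seq libraries of the study, the 2 labelled injured tissue, *myd88*+/+, at 24 hpci and the 2 at 1 hpci. The other libraries are 2 of untouched (UT) *myd88*+/+ ventricles and 6 of *myd88*-/- siblings in the same states. Each library was made from 3 pooled injured tissues or ventricles of adult AB-strain fish of both sexes, and replicates are therefore pools rather than single fish. The fish of the study were 3 to 12 months old, and the ages in each pool were not given. A cryoprobe cooled in liquid nitrogen had been applied to the ventricular apex, and the injured tissue was dissected, whereas UT samples are whole ventricles. In any comparison with UT levels, the part of the heart sampled and the injury therefore cannot be told apart. Values are normalized counts, reads per gene divided by a library size factor and rounded.

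Cryoinjury kills the cells under the probe and leaves a wound that zebrafish replace with new muscle over the following weeks. Stressed surviving cells switch on immediate early genes within minutes. Their induction needs no new protein synthesis, and many of them encode transcription factors. Neutrophils and then macrophages enter the wound, take up debris in their lysosomes and secrete cytokines. MyD88 is the adaptor that links most Toll-like receptors and the interleukin-1 receptors to NF-κB. Epicardium and endocardium around the wound lay down a provisional matrix and begin to divide.

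The *myd88*+/+ libraries at 1 hpci held an estimated 3671109 and 4021354 reads, and those at 24 hpci 1476129 and 4050121. In replicate 1 at 24 hpci 1 read stood for 2.539 normalized counts, so that 3 reads, taken as the smallest visible level, came to 7.62 there and to 2.25 to 2.99 in the other libraries compared. These floors cover counting error only. The 1 hpci pools also differed in skeletal muscle and atrial marker genes. Summed over 6 skeletal muscle markers, replicate 2 at 1 hpci had 6167 normalized counts, against 1656 in replicate 1 and 2155 and 817 at 24 hpci. Most of the sum in the other libraries was *ckma*, a muscle creatine kinase (1424 and 1130 at 1 hpci, 2140 and 807 at 24 hpci), and 3 of the 7 genes listed under the 6 marker names were at 0 in both 24 hpci libraries. Replicate 1 at 1 hpci had 3371 normalized counts of the atrial myosin gene *myh6*, against 717 in replicate 2. UT ventricles had 1527 and 1210 of *myh6*, and the 24 hpci libraries 5 and 13. The standard deviation of the log2 difference between replicates was 1.037 at 1 hpci and 0.978 at 24 hpci, and 0.541 to 0.678 in the other 4 groups.

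**Figure D1:**
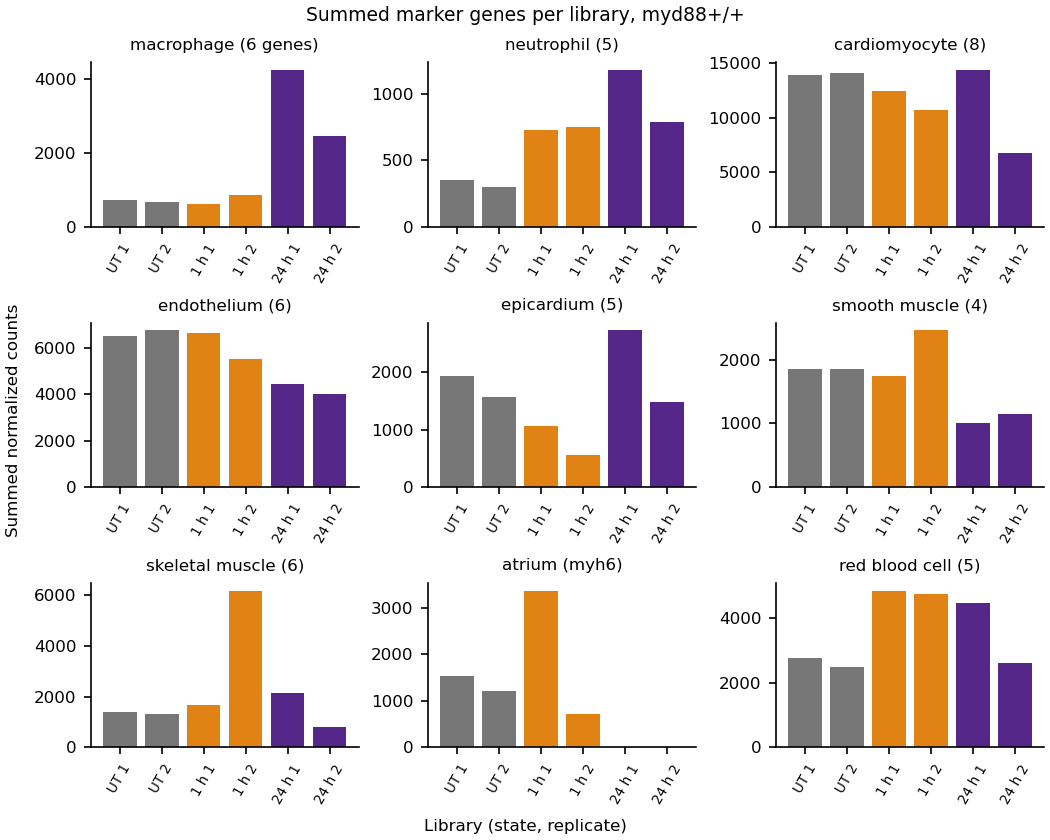
Summed normalized counts of marker genes for 9 tissues and cell types in the 6 *myd88*+/+ libraries, UT ventricles in grey, 1 hpci in orange and 24 hpci in purple, each bar 1 library. Macrophage markers were highest in the 24 hpci libraries (4249 and 2461), skeletal muscle markers in replicate 2 at 1 hpci (6167) and atrial *myh6* in replicate 1 at 1 hpci (3371).

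The tissue was checked against markers of the cells it could hold. The 8 cardiomyocyte markers summed to 12436 and 10689 at 1 hpci and to 14375 and 6729 at 24 hpci, and none was at 0 in any library. Macrophage markers summed to 605 and 868 at 1 hpci and 4249 and 2461 at 24 hpci, while the 6 endothelial and endocardial markers went from 6647 and 5540 to 4457 and 4021. Less RNA per cell and fewer cells of a type cannot be told apart in such pools.

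Between 1 and 24 hpci more macrophage, lysosome, ribosome biogenesis and DNA replication genes rose than fell, and more early response, cardiac ion handling, fatty acid oxidation and clock genes fell than rose. Of 16643 genes tested, 5793 (34.8%) changed, 2805 (16.9%) upward and 2988 (18.0%) downward, by limma on log2(normalized count + 1). A gene was called changed when the Benjamini-Hochberg adjusted p fell under 0.05 and the change exceeded 1.5-fold. Among them 449 rose by more than 3 on the log2 scale and 456 fell by more than 3. The median log2 fold change of all tested genes was −0.04. Both 24 hpci libraries lay above both 1 hpci libraries for 4781 genes (28.7%) and below them for 4935 (29.7%). These counts rest on a spread shared by 6 groups. Estimated from the 4 libraries alone, it gave 1902 calls, 984 higher and 918 lower, and 1895 of them were among the 5793, in the same direction. Counts from that narrower fit are therefore given with the gene lists. They are to be read against 984 higher and 918 lower of the same 16643 genes. The shares of 16.9% and 18.0% belong to the fit with 6 groups only. An exact permutation test of 2 against 2 libraries cannot fall below p = 0.33, so p-values here come from limma only. Of the called genes named without a further value, *ccl38.6*, *il1rapl1a*, *ptprc*, *ctsf*, *tfeb*, *nkx2.5*, *ttn.1*, *lpl*, *ogdha*, *psmb9a*, *hsp70l*, *pcna*, *ccnb1*, *krt18b*, *flt1*, *cd79a*, *bcl2l1*, *gpx4a* and *sdhda* did not pass in the 4 libraries alone (limma adjusted p from 0.056 to 0.269).

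**Figure D2:**
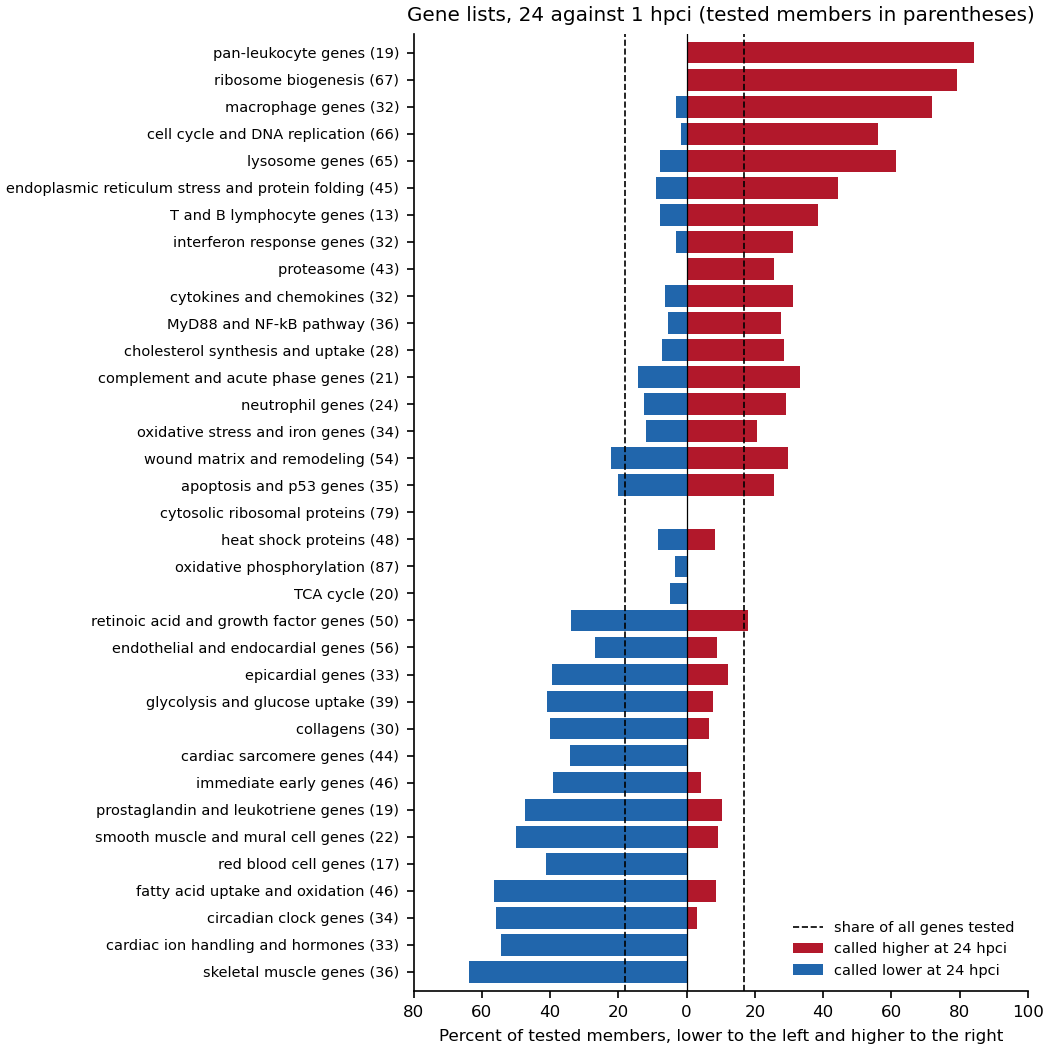
Percent of the tested members of 35 gene lists called higher (red, to the right) and lower (blue, to the left) at 24 hpci. Dashed lines mark the shares of all tested genes, 16.9% higher and 18.0% lower. Of the lists, 17 hold more genes called higher than lower and 16 hold more called lower.

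**Figure D3:**
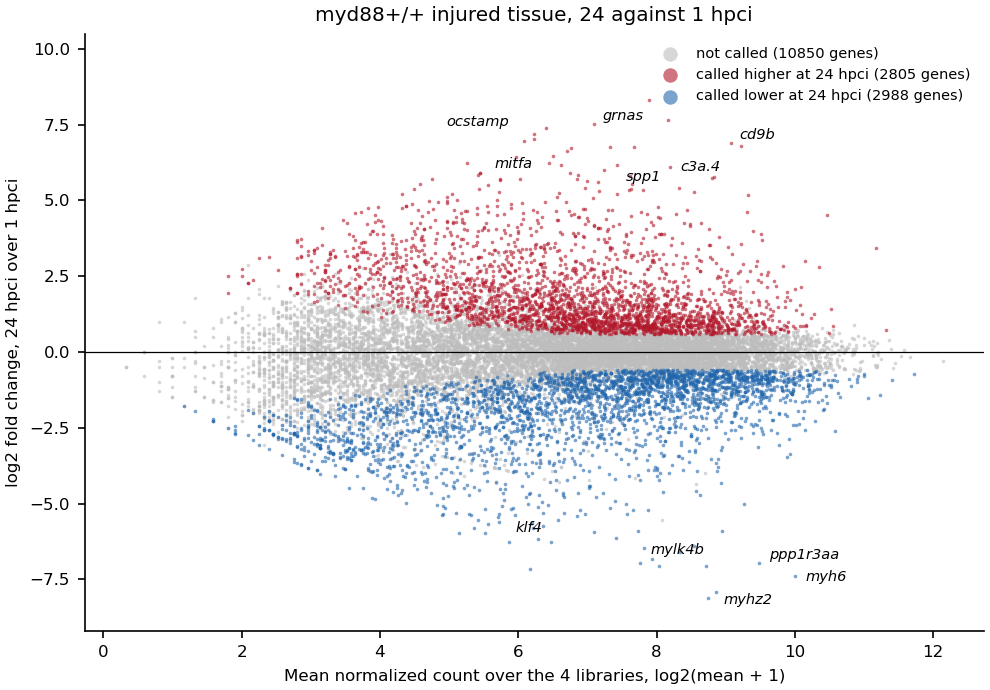
The log2 fold change from 1 to 24 hpci of each of the 16643 tested genes against its mean normalized count over the 4 libraries, log2(mean + 1), with genes called higher in red and lower in blue. The 2805 genes called higher lie above 0 and the 2988 called lower lie below it, with *cd9b* and *myh6* among the farthest.

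Genes of macrophages, pigment cells and the complement system were among the 12 named genes with the largest increases. *ocstamp*, which drives the fusion of macrophage-lineage cells in mammals, was at 0 in both 1 hpci libraries and had 112 and 184 normalized counts at 24 hpci. With the 1 hpci group set to 3 reads over its 2 libraries, this was at least 122-fold higher. The macrophage and wound glycoprotein gene *spp1* (osteopontin, chromosome 10, 15120711 to 15128771, danRer11) went from 3 and 4 to 444 and 237, a log2 fold change of 6.18 (SE 0.75, limma adjusted p = 0.000278). *cd9b*, a tetraspanin of the cell surface, was already well above the floor in every 24 hpci library. It had 5 and 11 normalized counts at 1 hpci and 1442 and 707 at 24 hpci (log2 fold change 6.90, SE 0.50). *clcf1*, an interleukin-6 family cytokine (chromosome 14, 22022441 to 22038396), had 1 and 1 and then 147 and 266. From the estimated reads this is a ratio of 260, with a 95% counting interval (exact conditional binomial) from 71.6 to 2160.

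Others in this group were *c3a.4*, a complement C3 gene (7 and 8, then 594 and 563), *prom2* (0 and 3, then 89 and 251) and *alox5b.2*, of the 5-lipoxygenase family (0 and 0, then 218 and 77, at least 79.6-fold higher). *mitfa*, the transcription factor that specifies melanocytes, had 1 and 1 normalized counts at 1 hpci and 211 and 147 at 24 hpci. *tyrp1b*, an enzyme gene of melanin synthesis, moved the same way, from 0 and 1 to 112 and 134. Their level in UT ventricles lay between, at 14 and 5 for *mitfa* and 3 and 2 for *tyrp1b*. *tmem163a* (0 and 0, then 84 and 183) was at least 117-fold higher. *dicp2.1*, of a multigene family of immunoglobulin-domain receptors, was at least 111-fold higher (0 and 0, then 195 and 140), a value that is uncertain because reads matching several copies had been removed. *grnas*, with 1 and 0 and then 355 and 189 normalized counts, is annotated antisense on chromosome 19 (40186385 to 40205463, plus strand) and spans the granulin genes *grn1* and *grn2* of the opposite strand. Whether the counting used strand was not given in the sources used here, so its reads and theirs cannot be told apart. *grn1* had 92 and 210 and then 1799 and 706, and *grn2* 2 and 14 and then 480 and 288. All 12 genes also passed the test in the 4 libraries alone. They had been picked as the largest increases without overlap between these same libraries, so this is no independent support.

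Muscle genes made up most of the 12 largest decreases, and for 6 skeletal muscle genes among them the replicates at 1 hpci differed widely. The fast skeletal myosin *myhz2* had 31 normalized counts in replicate 1 and 1815 in replicate 2 at 1 hpci, and 0 in both 24 hpci libraries. The skeletal muscle genes *mylpfa* (40 and 932, then 0 and 2), *atp2a1l* (20 and 1664, then 0 and 1), *myhc4* (14 and 1275, then 0 and 1), *tnni2a.2* (8 and 887, then 0 and 0) and *actn3b* (24 and 1455, then 0 and 4) had the same imbalance. In UT ventricles none of these 6 exceeded 1 normalized count except *actn3b* (15 and 14). Fast myosin and other skeletal copies are near-identical, so the split between them is uncertain. Of the 36 skeletal muscle genes tested, 23 fell and 0 rose, with a median of −4.46. Without replicate 2 at 1 hpci the median was −1.98 and 15 fell. In the 4 libraries alone 8 fell, and *actn3b*, *atp2a1l*, *myhc4* and *tnni2a.2* no longer passed (limma adjusted p from 0.0554 to 0.0781).

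Among the other decreases, both 1 hpci pools had similar levels of *ppp1r3aa*, *pvalb2*, *mylk4b* and *klf4*, but not of *mylk4a* and *myh6*. *ppp1r3aa*, a subunit that targets protein phosphatase 1 to glycogen (chromosome 4, 6572364 to 6580610), had 1597 and 1237 normalized counts at 1 hpci and 8 and 13 at 24 hpci (log2 fold change −6.97, SE 0.68, limma adjusted p = 0.000117). UT ventricles had 416 and 496. *pvalb2*, a parvalbumin calcium buffer of skeletal muscle, had 128 and 156 at 1 hpci, 0 and 0 at 24 hpci and 1 and 1 in UT ventricles. *mylk4a* and *mylk4b*, of the myosin light chain kinase family, went from 772 and 272 to 3 and 2 and from 444 and 412 to 0 and 11. Their UT levels were 53 and 82 for *mylk4a* and 174 and 280 for *mylk4b*. *myh6* fell by 7.41 on the log2 scale (SE 0.67), and by 6.29 without replicate 1 at 1 hpci. *klf4*, a zinc-finger transcription factor of the immediate early group, had 220 and 262 normalized counts in UT ventricles, then 168 and 179 at 1 hpci and finally 0 and 4 at 24 hpci.

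More immediate early genes fell than rose. Of 46 tested, 18 fell, 2 rose and the other 26 were not called, with a median log2 fold change of −0.60 (12 fell and 1 rose in the 4 libraries alone). The number that fell was 12 without replicate 1 at 1 hpci and 27 without replicate 1 at 24 hpci, and the median ranged from −1.04 to −0.27 as single libraries were left out. *fosb*, an AP-1 subunit, stood at 79 and 56 normalized counts before injury, at 1101 and 1265 at 1 hpci and at 18 and 69 at 24 hpci. The 24 hpci libraries lay below and within the UT range, and the log2 fold change from 1 hpci was −5.02 (SE 0.52, limma adjusted p = 0.000133). *egr1*, an early zinc-finger factor, had 624 and 614 in UT ventricles, then 2119 and 1964 at 1 hpci and finally 782 and 722 at 24 hpci (−1.44, SE 0.21). The AP-1 gene *jund* ended below its UT level, with 895 and 1078, then 2190 and 1963, then 439 and 413 (−2.28, SE 0.18).

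The orphan nuclear receptors *nr4a1* (2627 and 2108, then 888 and 785) and *nr4a2b* (389 and 147, then 13 and 20) fell, as did *egr3* (510 and 735, then 190 and 232) and *csrnp1a* (972 and 824, then 226 and 270). The stress factor *atf3* was called lower (1538 and 1193, then 997 and 609) but lost the call when any library except replicate 1 at 24 hpci was left out, with log2 fold changes from −1.15 to −0.44. *fosab*, the zebrafish c-Fos gene, did not pass, at 1470 and 1274 and then 888 and 470 (−1.08, limma adjusted p = 0.0721). Both 24 hpci libraries were below both 1 hpci libraries for this gene, too. 2 members went the other way. *fosl1b*, a Fos-like AP-1 subunit, rose from 7 and 9 to 99 and 73 (3.27, SE 0.37), and the mRNA decay factor *zfp36l1a* from 477 and 512 to 1051 and 667 (0.76, lost in the 4 libraries alone, limma adjusted p = 0.187). *socs3a*, a cytokine-induced inhibitor, had 1488 and 1253 and then 1629 and 754 and did not pass.

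**Figure D4:**
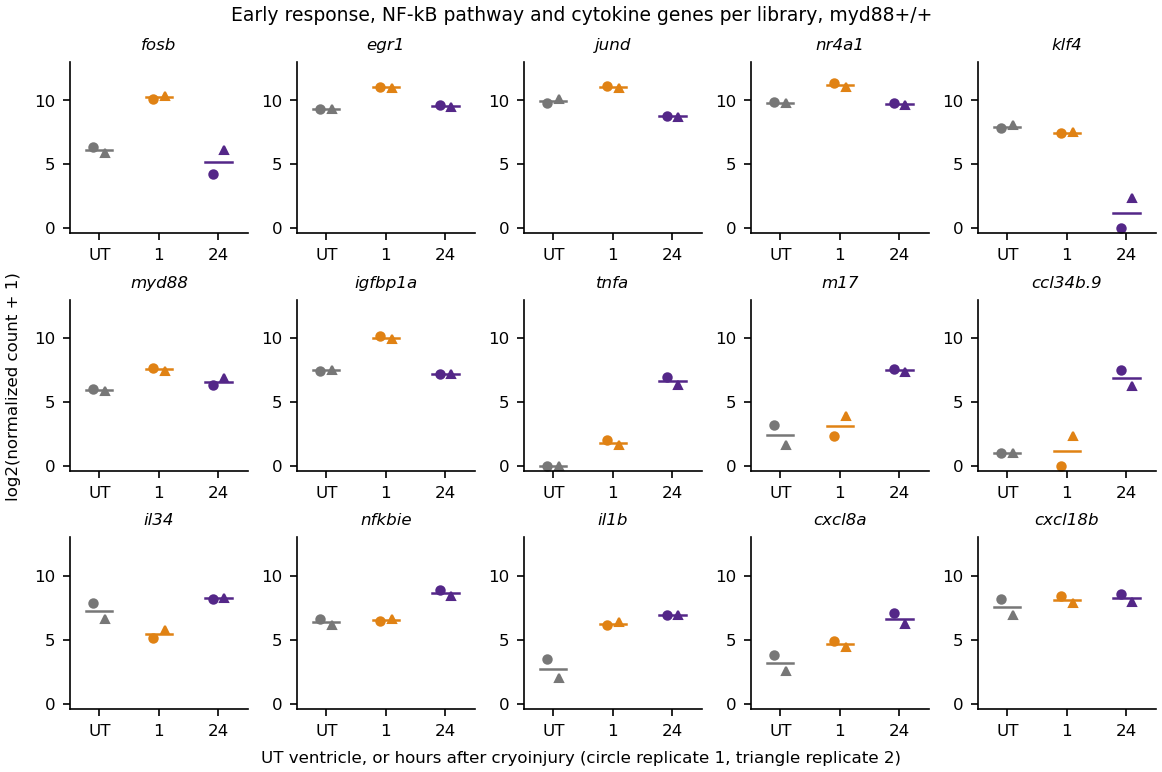
Normalized counts, log2(value + 1), of 15 early response, NF-κB pathway and cytokine genes in *myd88*+/+ UT ventricles and injured tissue at 1 and 24 hpci. Circles are replicate 1, triangles replicate 2 and bars the mean of both. *fosb* stands at 1101 and 1265 at 1 hpci only, and *tnfa* at 119 and 78 at 24 hpci.

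Cytokine genes followed different courses. Of 32 tested, 10 rose and 2 fell (median 0.72), and 11 rose and 1 fell in the 4 libraries alone. The 10 and 2 calls are 31.2% and 6.25% of the list, beside 16.9% higher and 18.0% lower among all genes tested. *clcf1*, described above among the largest increases, is not in this list. *tnfa*, the pro-inflammatory tumour necrosis factor (chromosome 19, 27019432 to 27024019), was at 0 in both UT libraries, at 3 and 2 normalized counts at 1 hpci and at 119 and 78 at 24 hpci (log2 fold change 4.81, SE 0.70, limma adjusted p = 0.000667). Its relative *tnfb* went from 23 and 44 to 195 and 193. *m17*, a fish cytokine of the interleukin-6 family, had 4 and 14 and then 190 and 164 (4.36, SE 0.84). *il34*, a ligand of the macrophage receptor Csf1r, was lower at 1 hpci (34 and 54) than in UT ventricles (229 and 98) and reached 287 and 312 at 24 hpci. The chemokine *ccl34b.9* went from 0 and 4 to 180 and 73 (5.69, SE 0.83), a value that is uncertain where chemokine copies share sequence. *cxcl14* (104 and 174, then 33 and 28) and *ccl38.6* (7 and 15, then 3 and 0) fell, the latter near the floor.

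*il1b*, the main interleukin-1 gene, was not called. It had 10 and 3 normalized counts in UT ventricles, then 68 and 81 at 1 hpci and finally 119 and 123 at 24 hpci (0.70, SE 0.68, limma adjusted p = 0.452). Both 24 hpci libraries were above both 1 hpci libraries. *cxcl8a*, a neutrophil chemoattractant, had 28 and 20 and then 135 and 73 (2.02, SE 0.91, limma adjusted p = 0.107, and 0.0487 in the 4 libraries alone). *cxcl18b*, another such chemokine, overlapped between the times, at 340 and 230 and then 383 and 243 (0.12, SE 0.42). The regeneration-linked cytokine gene *il11a* also overlapped (235 and 156, then 178 and 188).

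Some genes of the MyD88 pathway rose, while *myd88* fell. Of 36 tested, 10 rose and 2 fell (median 0.36), and 6 rose and 0 fell in the 4 libraries alone. The 10 and 2 calls are 27.8% and 5.56% of the list, beside 16.9% higher and 18.0% lower among all genes tested. *myd88* itself had 63 and 56 normalized counts in UT ventricles, then 200 and 171 at 1 hpci and finally 79 and 113 at 24 hpci (−0.96, SE 0.28, limma adjusted p = 0.0205). It lost the call without replicate 1 at 1 hpci or replicate 1 at 24 hpci and in the 4 libraries alone, and stayed between −1.22 and −0.71 with each library left out. The other decrease was *il1rapl1a*, of the interleukin-1 receptor family (209 and 110, then 56 and 89). *tlr8b*, a Toll-like receptor for RNA, went from 22 and 31 to 170 and 249 (2.93, SE 0.34, limma adjusted p = 0.00024), and *tirap*, the adaptor that works beside MyD88, from 2 and 3 to 51 and 37 (3.68). *nfkbie*, an NF-κB inhibitor that NF-κB itself induces, went from 85 and 99 to 475 and 336 (2.11, SE 0.28). *nfkbiaa*, the gene of another such inhibitor, was not called (298 and 349, then 840 and 473, 0.96, limma adjusted p = 0.0855).

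Leukocyte genes rose. Among pan-leukocyte genes 16 of 19 rose and 0 fell (median 1.61), and among macrophage genes 23 of 32 rose and 1 fell (median 1.93). In the 4 libraries alone 11 and 18 rose and none fell. *spi1b* (Pu.1), the myeloid master transcription factor, had 110 and 93 normalized counts in UT ventricles, then 121 and 200 at 1 hpci and finally 1277 and 721 at 24 hpci (2.62, SE 0.30, limma adjusted p = 0.000205). The actin-binding leukocyte genes *coro1a* (255 and 280, then 1761 and 811) and *lcp1* (318 and 446, then 2472 and 1114) rose with it, as did *rac2*, a leukocyte GTPase (71 and 122, then 863 and 476). *ptprc* (CD45) was already higher at 1 hpci (384 and 547) than in UT ventricles (163 and 145) and reached 1140 and 736.

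Of the macrophage markers, the scavenger receptor *marco* went from 203 and 261 to 1690 and 768 (2.30, SE 0.31), and the perforin-like *mpeg1.1* from 185 and 139 to 873 and 530 (2.08, SE 0.28). *slc7a7*, an amino acid transporter needed by microglia, went from 93 and 63 to 1596 and 946 (3.99, SE 0.32, limma adjusted p = 6.01e-05). *havcr1*, a receptor for apoptotic cells (50 and 75, then 1140 and 649), *grna*, a progranulin (188 and 314, then 2535 and 1500), and *apoeb*, an apolipoprotein of lipid-laden phagocytes (14 and 95, then 934 and 556), also rose. *csf1ra*, the Csf1 and Il34 receptor, was lower at 1 hpci (51 and 191) and rose to 302 and 446, a call that the 4 libraries alone did not keep (limma adjusted p = 0.0929). The single decrease was *cd74a*, the invariant chain of antigen presentation (616 and 670, then 482 and 265), lost in the 4 libraries alone (limma adjusted p = 0.176).

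Among neutrophil genes 29.2% were called higher, beside 16.9% of all genes tested. Those called lower were 12.5%, below the 18.0% of all genes. Of 24 tested, 7 rose and 3 fell (median 0.72), against 5 and 0 in the 4 libraries alone. *ncf4*, an NADPH oxidase subunit that macrophages make as well, rose from 29 and 53 to 454 and 329. *mpx*, the neutrophil myeloperoxidase, had 30 and 8 normalized counts in UT ventricles, then 35 and 236 at 1 hpci and finally 216 and 280 at 24 hpci. The 1 hpci pools differed so much that the change was not called (1.42, SE 0.78, limma adjusted p = 0.182) and ranged from 0.06 to 2.78 as single libraries were left out. *lyz* (lysozyme) was near the floor throughout and was called lower, from 11 and 16 to 0 and 2, but not in the 4 libraries alone (limma adjusted p = 0.0961). *mmp9*, a gelatinase of neutrophils and other wound cells, had 285 and 600 and then 411 and 406. *mmp13a* is listed under 2 gene identifiers, with 310 and 377 and then 218 and 231 for ENSDARG00000114451, and 4 and 4 and then 282 and 217 for ENSDARG00000012395 (5.63, SE 0.96). Both values are uncertain where the loci share sequence.

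Lymphocyte genes were low and few. Of 13 tested, 5 rose and 1 fell, and the median was −0.18. The 5 and 1 calls are 38.5% and 7.69% of the list, beside 16.9% higher and 18.0% lower among all genes tested. Without replicate 1 at 1 hpci 2 rose and 3 fell, and without replicate 1 at 24 hpci 3 rose. *cd37*, a tetraspanin of B cells and other leukocytes, went from 4 and 6 to 69 and 71 (3.58, SE 0.69), and the B cell receptor component *cd79a* from 1 and 5 to 28 and 25. *sla2*, an adaptor that dampens antigen receptor signals, fell from 59 and 86 to 5 and 7, where UT ventricles had 7 and 8. Only *cd37* and *sla2* passed in the 4 libraries alone. Among 17 red blood cell genes 7 fell and 0 rose, against 2 and 0 in the 4 libraries alone and 3 without replicate 2 at 1 hpci. *bpgm*, which sets the 2,3-bisphosphoglycerate level of red cells, had 847 and 626 at 1 hpci and 213 and 213 at 24 hpci (−1.77, SE 0.22). The globin gene *hbaa1* did not pass (384 and 331, then 713 and 286).

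Lysosomal genes rose. Of 65 tested, 40 rose and 5 fell (median 1.00), against 15 and 1 in the 4 libraries alone. *atp6v1ab*, a catalytic subunit of the proton pump that acidifies lysosomes, had 82 and 90 normalized counts at 1 hpci and 1132 and 795 at 24 hpci (3.45, SE 0.24, limma adjusted p = 4.82e-05). UT ventricles had 117 and 117. The cathepsins *ctsz* (220 and 167, then 1797 and 723) and *ctsd* (774 and 658, then 2391 and 1013) rose, the latter not in the 4 libraries alone (limma adjusted p = 0.161). *tfeb*, the transcription factor of lysosomal genes, fell from 751 and 569 to 299 and 312, and cathepsin *ctsf* from 663 and 536 to 338 and 321.

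Cardiac genes fell in part. In the list named cardiac ion handling and hormones 18 of 33 fell and 0 rose (median −0.88). In the sarcomere list 15 of 44 fell and 0 rose (median −0.46), and 6 of each list fell in the 4 libraries alone. Of the sarcomere genes 27 fell without replicate 1 at 24 hpci, and 10 rose and 11 fell without replicate 2. Of the ion handling list 9 fell without replicate 1 at 1 hpci and 13 without replicate 1 at 24 hpci. *ryr2b*, the cardiac calcium release channel (chromosome 17, 20009132 to 20118244), had 3058 and 3340 normalized counts in UT ventricles, then 3216 and 2044 at 1 hpci and finally 454 and 387 at 24 hpci (−2.61, SE 0.34, limma adjusted p = 0.000428). *atp1b1b*, a sodium pump subunit, went from 639 and 670 to 61 and 44 (−3.63, SE 0.24). The cardiac transcription factors *nkx2.5* (772 and 536, then 444 and 274) and *gata6* (851 and 585, then 277 and 291) also fell. Among sarcomere genes *myoz2a*, a Z-disc protein, went from 292 and 179 to 48 and 45, and the giant scaffold *ttn.1* from 3644 and 3446 to 2033 and 1687.

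The sarcomere genes *myl7* and *tnnt2a* and the hormone gene *nppa* were not called, and the 24 hpci pools disagreed on them. *myl7*, the cardiac myosin light chain, had 1010 and 802 normalized counts at 1 hpci and 1561 and 548 at 24 hpci (0.04, SE 0.36). *tnnt2a*, cardiac troponin T, had 1080 and 865 and then 1718 and 620, and the hormone gene *nppa* 1269 and 960 and then 2038 and 802. Without replicate 1 at 24 hpci the log2 fold changes of *myl7*, *tnnt2a* and *nppa* stood at −0.71, −0.64 and −0.46, and without replicate 2 they stood at 0.79, 0.83 and 0.88. The 2 libraries of each time differed with expression level. For the 399 genes with a mean above 1000, replicate 1 at 24 hpci was a median 0.705 above replicate 2 on the log2 scale. For genes with a mean between 20 and 100 this median was −0.322. At 1 hpci the same medians were 0.278 and −0.317. Replicate 1 at 24 hpci is the library with 1476129 reads, whereas the 1 hpci libraries had 3671109 and 4021354. The part of depth and of duplicate removal in this was not tested.

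More genes of fatty acid use fell than rose. Of 46 tested, 26 fell and 4 rose (median −0.79), and 9 fell and 2 rose in the 4 libraries alone. Without replicate 1 at 1 hpci 16 fell. *cpt1b*, the muscle gate of fatty acid entry into mitochondria, had 772 and 852 normalized counts in UT ventricles, then 1502 and 995 at 1 hpci and finally 218 and 212 at 24 hpci (−2.50, SE 0.24, limma adjusted p = 0.000101). *pdk2a* and *pdk4*, kinases that restrain pyruvate oxidation, went from 2225 and 1625 to 221 and 450 and from 1031 and 909 to 109 and 285. *ppargc1a*, the coactivator of mitochondrial biogenesis, went from 379 and 338 to 8 and 49 (−4.08, SE 0.80). *lpl*, which frees fatty acids from lipoproteins (673 and 230, then 1832 and 1046), and the lipid droplet coat *plin2* (18 and 6, then 102 and 177) rose.

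Of the glycolysis and glucose uptake genes tested, 41% were called lower, beside 18.0% of all genes. Those called higher were 7.69%, below the 16.9% of all genes. Of 39 tested, 16 fell and 3 rose (median −0.50), against 8 and 3 in the 4 libraries alone, while 25 fell without replicate 1 at 24 hpci and 14 rose without replicate 2. *slc2a1a*, the Glut1 glucose transporter (chromosome 23, 22200467 to 22212635), had 433 and 367 normalized counts at 1 hpci and 23 and 23 at 24 hpci (−4.06, SE 0.52). *slc16a1a*, a lactate transporter, went from 141 and 244 to 8 and 5 (−4.67, SE 0.34, limma adjusted p = 6.01e-05), and *pfkfb4a*, which sets the level of a glycolytic activator, from 1009 and 777 to 190 and 250. The 3 that rose were *hk2*, a hexokinase (245 and 287, then 1741 and 1050), and the enolases *eno2* (1 and 2, then 63 and 141) and *eno1b* (92 and 35, then 480 and 352). *ldha* overlapped between the times (1630 and 1312, then 2272 and 924).

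Few oxidative phosphorylation genes were called, and the 24 hpci pools disagreed on them. Of 87 tested, 3 fell and 0 rose, below the 18.0% of all genes called lower, and 0 were called in the 4 libraries alone by limma. The decreases were *sdhda*, *ndufa4l2a* and *cox4i2*, an oxygen-responsive cytochrome oxidase isoform (74 and 105, then 8 and 28), which did not pass in the 4 libraries alone (limma adjusted p = 0.061). Without replicate 1 at 24 hpci 68 of the 87 fell, and without replicate 2 at 24 hpci 22 rose and 2 fell. Of 20 TCA cycle genes 1 fell, *ogdha* (2845 and 2224, then 1723 and 1370), and 16 fell without replicate 1 at 24 hpci. The oxidative phosphorylation median was −0.74 without replicate 1 and 0.38 without replicate 2 at 24 hpci. Cytosolic ribosomal proteins shifted in the same directions, with medians of −0.40 and 1.00. By limma 0 of 79 were called and 0 had an unadjusted p below 0.05, with a median of 0.31, but 76 rose without replicate 2 at 24 hpci and 1 fell without replicate 1. *rpl13a*, the study's reference gene for RT-qPCR, had 621 and 509 at 1 hpci and 1053 and 420 at 24 hpci (0.24, SE 0.33, limma adjusted p = 0.6).

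Genes that build ribosomes rose. Of 67 ribosome biogenesis genes 53 rose and 0 fell (median 1.12), 21 rose in the 4 libraries alone, and 37 to 54 rose as single libraries were left out. *utp25*, a processing factor of the small subunit, had 54 and 54 normalized counts at 1 hpci and 241 and 256 at 24 hpci (2.18, SE 0.23, limma adjusted p = 0.000137). *noc3l*, a nucleolar factor, went from 117 and 88 to 368 and 367. UT ventricles had more than the 1 hpci tissue, 113 and 137 for *utp25* and 189 and 169 for *noc3l*.

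More genes of the endoplasmic reticulum and the proteasome were called higher than lower, and the counts changed with single libraries left out. Of 45 endoplasmic reticulum stress and folding genes 20 rose and 4 fell (median 0.66), against 6 and 0 in the 4 libraries alone. The 20 and 4 calls are 44.4% and 8.89% of the list, beside 16.9% higher and 18.0% lower among all genes tested. The number that rose was 13 without replicate 2 at 1 hpci and 33 without replicate 2 at 24 hpci. The disulfide isomerase *pdia4* went from 211 and 186 to 1000 and 559 (1.91, SE 0.25), and the amino acid transporter subunit *slc3a2a* from 124 and 222 to 1134 and 671. *ddit3* (CHOP), a death-promoting factor of the stress response, fell from 484 and 455 to 284 and 267 and the stress kinase-like *trib3* from 1049 and 870 to 533 and 414, neither of which passed in the 4 libraries alone (limma adjusted p = 0.119 and 0.0809). *hspa5* (BiP), the main chaperone of this compartment, was not called (1269 and 897, then 2685 and 1139). In the 4 libraries alone 1 of 43 proteasome genes rose, where 984 of all 16643 genes did. In the fit with 6 groups the median was 0.60, 32 were not called, 0 fell and 11 rose (25.6%, beside 16.9% of all genes tested). *psma6l* (53 and 73, then 284 and 187) and the immunoproteasome subunit *psmb9a* (18 and 45, then 150 and 101) were among them, and the count was 2 without replicate 1 and 42 without replicate 2 at 24 hpci, and 4 and 5 without the replicates at 1 hpci.

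Few heat shock genes were called, with 4 of 48 up and 4 down, and 1 each way in the 4 libraries alone. The 4 and 4 are each 8.33% of the list, below the 16.9% higher and 18.0% lower among all genes tested. Without replicate 2 at 24 hpci 25 rose, and without replicate 1 at 1 hpci 9 rose. *serpinh1b*, the collagen chaperone, rose from 67 and 44 to 261 and 169 (1.93, SE 0.27), below its UT level of 306 and 394. *hsp70l*, the inducible Hsp70, fell from 663 and 347 to 327 and 158, where UT ventricles had 201 and 178. *fkbp5*, a glucocorticoid-induced co-chaperone, fell from 1912 and 1664 to 416 and 288 (−2.36, SE 0.31, limma adjusted p = 0.000425). Its UT level was 691 and 874. *hspb1*, a small heat shock protein, had 702 and 568 and then 1185 and 435 and was not called.

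Genes of DNA replication and the cell cycle rose. Of 66 cell cycle genes 37 rose and 1 fell (median 1.77), against 15 and 1 in the 4 libraries alone, and 18 rose without replicate 1 at 1 hpci. *mcm5*, a subunit of the replicative helicase, had 101 and 162 normalized counts in UT ventricles, then 61 and 59 at 1 hpci and finally 396 and 421 at 24 hpci (2.75, SE 0.24, limma adjusted p = 8.54e-05). The helicase subunits *mcm2* (26 and 70, then 404 and 478), *mcm3* (16 and 44, then 223 and 354) and *mcm6* (28 and 52, then 312 and 410) moved with it. *pcna*, the replication clamp, rose from 257 and 285 to 673 and 421, and mitotic *ccnb1* from 9 and 32 to 74 and 77. *mki67*, a marker of dividing cells, differed between the 1 hpci pools (36 and 114) and was called at 170 and 228, but lost the call with any library left out except replicate 2 at 1 hpci and in the 4 libraries alone (limma adjusted p = 0.113). The decrease was *cdkn1bb*, a cell cycle inhibitor (553 and 503, then 244 and 197).

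**Figure D5:**
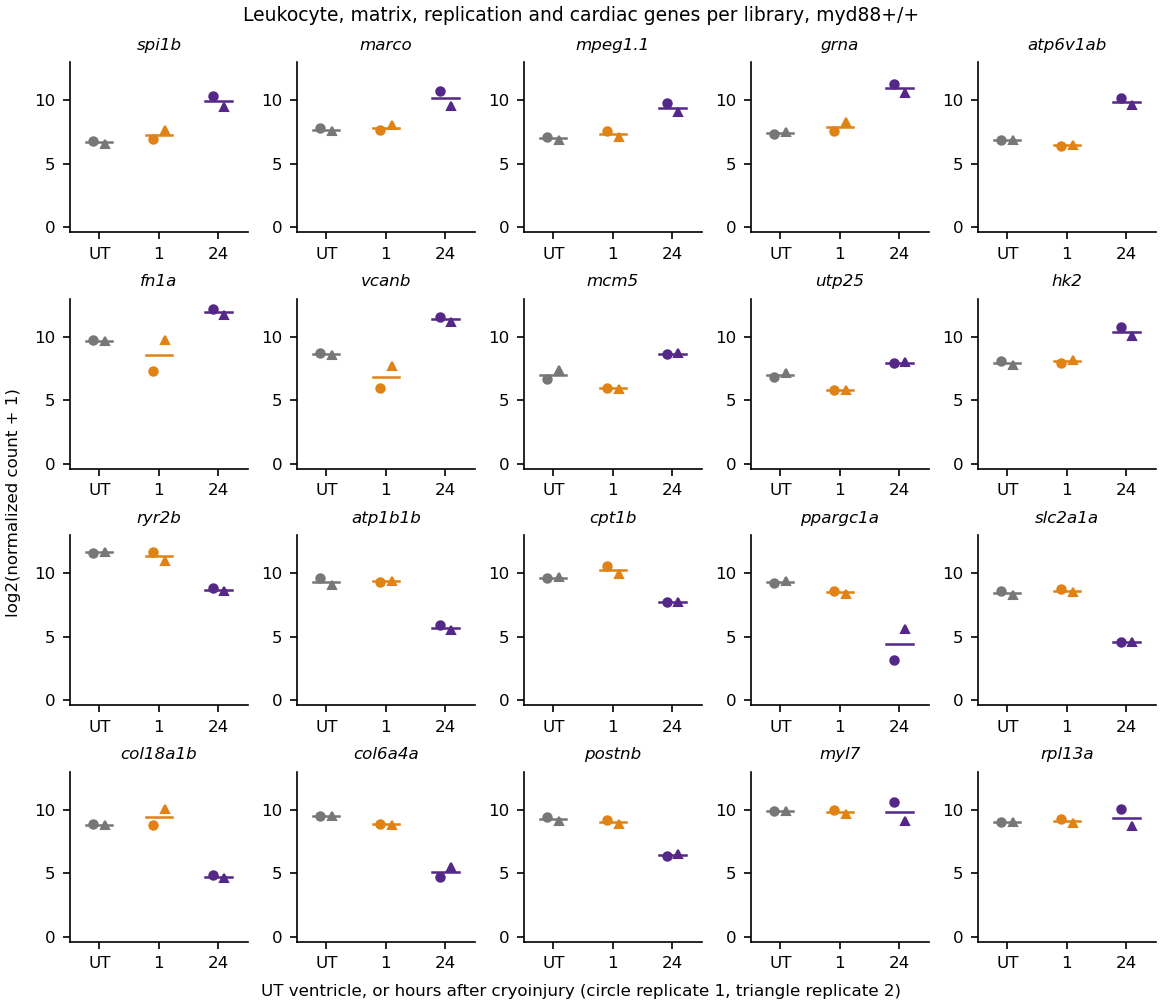
Normalized counts, log2(value + 1), of 20 leukocyte, matrix, replication and cardiac genes in *myd88*+/+ UT ventricles and injured tissue at 1 and 24 hpci. Circles are replicate 1, triangles replicate 2 and bars the mean of both. *vcanb* rises from 63 and 212 to 3048 and 2337 and *atp1b1b* falls from 639 and 670 to 61 and 44, while *myl7* and *rpl13a* overlap.

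More collagen genes fell than rose. Of 30 collagens 12 fell and 2 rose (median −1.44), against 9 and 1 in the 4 libraries alone. *col18a1b*, a basement membrane collagen, had 466 and 448 normalized counts in UT ventricles, then 443 and 1080 at 1 hpci and finally 28 and 23 at 24 hpci (−4.72, SE 0.48, limma adjusted p = 0.000133). Collagen VI chains fell together, *col6a4a* from 480 and 454 to 25 and 43, *col6a1* from 828 and 1326 to 269 and 376 and *col6a2* from 873 and 1182 to 272 and 376. The chains of fibrillar collagen I were not called, with 1708 and 2054 and then 2134 and 1524 for *col1a1a* and 1296 and 1713 and then 1708 and 1182 for *col1a2*. *col12a1b*, a collagen of the regenerating matrix, was at 5 and 74 at 1 hpci and rose to 376 and 580, and *col11a1a* from 2 and 8 to 30 and 56, the latter not in the 4 libraries alone (limma adjusted p = 0.0591).

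Of 54 wound matrix and remodeling genes 16 rose and 12 fell, with a median of −0.01, against 8 and 5 in the 4 libraries alone. The 16 and 12 are 29.6% and 22.2% of the list, beside 16.9% higher and 18.0% lower among all genes tested. *fn1a*, fibronectin (chromosome 9, 15362300 to 15424639), had 837 and 824 normalized counts in UT ventricles, then 160 and 876 at 1 hpci and finally 4804 and 3368 at 24 hpci (3.42, SE 0.60, limma adjusted p = 0.00174). The proteoglycan *vcanb* (chromosome 10, 43188678 to 43263885) went from 63 and 212 to 3048 and 2337 (4.51, SE 0.42). The hyaluronan synthase *has2* (15 and 15, then 114 and 180) and the urokinase gene *plaua* (65 and 125, then 1041 and 551) rose. *tnc*, tenascin-C, was called (21 and 99, then 223 and 391) but not in the 4 libraries alone (limma adjusted p = 0.0573). Against these, the periostins *postnb* (586 and 472, then 79 and 90) and *postna* (333 and 368, then 33 and 101) and the gelatinase *mmp2* (762 and 809, then 259 and 214) fell.

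Epicardial genes were called lower more often than higher. The calls were 39.4% lower and 12.1% higher, beside 18.0% lower and 16.9% higher among all genes tested. None of the genes described in this paragraph was among those called lower. Of 33 tested, 13 fell and 4 rose (median −0.20), against 6 and 1 in the 4 libraries alone, and 8 rose without replicate 2 at 24 hpci. *wt1b*, a factor of activated epicardium, had 53 and 31 normalized counts in UT ventricles, then 59 and 31 at 1 hpci and finally 525 and 288 at 24 hpci (3.15, SE 0.42, limma adjusted p = 0.000425). *aldh1a2*, which makes retinoic acid, was lower at 1 hpci (788 and 361) than in UT ventricles (1219 and 952) and had 2010 and 984 at 24 hpci (1.40, lost in the 4 libraries alone, limma adjusted p = 0.125). *tcf21*, a resting epicardial factor, was low at both times (98 and 65, then 117 and 82) against 249 and 227 in UT ventricles. The retinoic acid-degrading *cyp26b1* (145 and 121, then 490 and 474) and the keratin *krt18b* (455 and 572, then 2332 and 956) rose.

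Among 56 endothelial and endocardial genes 15 fell and 5 rose (median −0.24), against 4 and 2 in the 4 libraries alone, and 5 fell without replicate 1 at 1 hpci. The 15 and 5 calls are 26.8% and 8.93% of the list, beside 18.0% lower and 16.9% higher among all genes tested. In the 4 libraries alone 918 of all 16643 genes fell and 984 rose. *kdrl*, a Vegf receptor, fell from 1735 and 1498 to 949 and 1023 (−0.71), not in the 4 libraries alone (limma adjusted p = 0.206), and the junction gene *cdh5* did not pass (1257 and 1297, then 876 and 859). *notch1a* fell from 605 and 598 to 170 and 252 and *flt1*, a Vegf decoy receptor, from 1729 and 924 to 523 and 345. The ligand gene *vegfab* had 1940 and 1475 and then 614 and 500 (−1.61, SE 0.22, limma adjusted p = 0.00055). *flt4*, the lymphatic and venous Vegf receptor, went the other way, from 17 and 48 to 165 and 182 (2.55, SE 0.58). Smooth muscle and mural genes fell in 11 of 22 and rose in 2, against 6 and 0 in the 4 libraries alone. The 11 and 2 calls are 50% and 9.09% of that list. *rgs5a*, a pericyte marker, went from 304 and 630 to 38 and 83, and *smtnl1*, a smoothelin-like muscle protein, from 537 and 372 to 5 and 23.

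Of 50 retinoic acid and growth factor genes 17 fell and 9 rose, against 6 and 5 in the 4 libraries alone, and 5 rose without replicate 1 at 24 hpci. The 9 and 17 calls are 18% and 34% of the list, beside 16.9% higher and 18.0% lower among all genes tested. *igfbp1a*, a binding protein of insulin-like growth factors induced by hypoxia and fasting, was high at 1 hpci only. It had 172 and 181 normalized counts in UT ventricles, then 1109 and 988 at 1 hpci and finally 142 and 147 at 24 hpci (−2.85, SE 0.20, limma adjusted p = 4.82e-05). *igfbp3* fell from 1446 and 882 to 150 and 208, whereas the ligand gene *wnt2bb* rose from 21 and 28 to 175 and 227.

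Prostaglandin and leukotriene genes fell more often than they rose. Of 19 tested, 9 fell and 2 rose (median −1.23), against 4 and 2 in the 4 libraries alone, and 4 fell without replicate 1 at 1 hpci. *ptgis*, prostacyclin synthase, had 8 and 6 normalized counts in UT ventricles, then 11 and 26 at 1 hpci and finally 924 and 520 at 24 hpci (5.27, SE 0.49, limma adjusted p = 9.56e-05). *lta4h*, of leukotriene B4 synthesis, rose from 136 and 135 to 546 and 364. The inducible cyclooxygenases *ptgs2a* (1088 and 449, then 277 and 215) and *ptgs2b* (1147 and 268, then 198 and 156) were called lower, both above their UT levels at 24 hpci, and neither passed in the 4 libraries alone (limma adjusted p = 0.077 and 0.14). Constitutive *ptgs1* (174 and 208, then 58 and 74) and thromboxane synthase *tbxas1* (401 and 230, then 96 and 79) fell in that fit as well.

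Of the complement and acute phase genes tested, 33.3% were called higher, beside 16.9% of all genes. Those called lower were 14.3%, below the 18.0% of all genes. The list leaves out *c3a.4*, described above among the largest increases. Of 21 tested, 7 rose and 3 fell, with a median of −0.42, against 7 and 2 in the 4 libraries alone, and 5 fell without replicate 1 at 24 hpci. *cfp* (properdin), an activator of the alternative pathway, went from 154 and 201 to 1315 and 949 (2.66, SE 0.21, limma adjusted p = 6.01e-05), and *cfh*, its inhibitor, from 6 and 20 to 373 and 255. The acute phase genes *saa* (15 and 18, then 254 and 163) and *hp*, haptoglobin (37 and 39, then 249 and 147), rose. *c4*, a component of the classical pathway, fell from 503 and 1135 to 61 and 68 and *c6*, of the lytic complex, from 211 and 319 to 51 and 76.

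The change from 1 to 24 hpci was also set against that of *myd88*-/- injured tissue, with an interaction term in the same fit. In *myd88*-/- fish 3005 genes rose and 2710 fell, and 3 genes differed between the genotypes (0.0180% of those tested), while 991 had an unadjusted limma p below 0.05. With the 8 injured libraries alone, 1 gene was called. The 3 genes were *alpk2*, *col18a1a* and *oit3*, and for the genes described above the difference was not called.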

How the data were processed

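The authors made stranded mRNA libraries, trimmed reads (Trimmomatic 0.39), aligned them to danRer11 (STAR 2.7.3a), removed duplicate, multimapping, ribosomal and mitochondrial reads (Picard 2.21.7), counted reads on exons (featureCounts 1.6.5) and normalized with DESeq2 1.26.0, whose versions are those of the submitters' processing notes. What the authors deposited is treated as a score, because each count had been scaled by its library size factor and rounded, and no test made for raw counts was run. Removing duplicates without molecular identifiers limits the reads a highly expressed gene can keep. Depth was estimated from the steps between low values. Genes with a mean above 5 over 12 libraries (16643 of 22736) entered a limma 3.58.1 fit of log2(value + 1), run in R 4.3.3 (eBayes with trend, 6 group means, 6 residual degrees of freedom), which understates changes of low genes. The code was tested on simulated data.

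Members and gene lists were chosen with earlier results of these data known. The 35 lists were matched by symbol (2 name matches that are no subunits were removed). Named are the 12 largest increases and decreases with a symbol, a mean of at least 50 and no overlap between times, up to 2 called members per list and direction, preset markers, *rpl13a* and *myd88*. Others, such as *fosb*, *tirap* and *mcm2*, were chosen after their values were seen. Alternatives changed the pseudocount (0.5, 5), filter, scaling (TMM, quantile), libraries fitted, trend, array weights, block and thresholds, and left out each library. Each replicate is a pool of 3, so p-values measure a spread between pools, shared over all 6 groups. The groups compared had a larger replicate spread (1.037 and 0.978) than the others (0.541 to 0.678). Whether pools differed in day or clutch was not given. Coordinates are those of the deposited table.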

Additional observations from a re-analysis of the deposited data

Results flagged for a closer look

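The change from 1 to 24 hpci differed between *myd88*+/+ and *myd88*-/- injured tissue for 3 genes, by the interaction term of the limma fit. *alpk2*, an alpha kinase gene (chromosome 21, 10866421 to 10880565, danRer11), had 762 and 669 normalized counts at 1 hpci and 398 and 464 at 24 hpci in *myd88*+/+ tissue, and 6 and 2 and then 289 and 305 in *myd88*-/- tissue. The difference of the log2 changes, *myd88*+/+ minus *myd88*-/-, was −6.75 (SE 0.53, limma adjusted p = 0.00137), and UT ventricles of *myd88*+/+ fish had 71 and 42. *col18a1a*, a basement membrane collagen gene (chromosome 9, 41821613 to 41979505), had 905 and 428 and then 185 and 222 in *myd88*+/+ and 49 and 67 and then 301 and 372 in *myd88*-/- tissue, a difference of −4.14 (limma adjusted p = 0.0202). *oit3* (chromosome 13, 4685309 to 4707018) had 6 and 2 and then 0 and 0 in *myd88*+/+ tissue, at or near the floor of 3 reads, and 0 and 0 and then 89 and 43 in *myd88*-/- tissue, a difference of −8.17 (limma adjusted p = 0.029). In *myd88*+/+ tissue the change of *alpk2* was not called (−0.73, limma adjusted p = 0.148), and that of *oit3* was not called in the 4 libraries alone (limma adjusted p = 0.252). The number of genes that differed was 905 without replicate 2 and 1 without replicate 1 of *myd88*+/+ at 24 hpci, and 155 and 5 without replicates 1 and 2 at 1 hpci, so it depended on single libraries.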

How the results depend on the processing

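Of 18 alternative settings, the spread estimated from the 4 libraries alone gave 1902 calls (984 higher, 918 lower) in place of 5793, and limma's array weights gave 2080 (996 higher, 1084 lower). None called a gene in the opposite direction. With single libraries left out the count was 4482 to 6660, of which 2134 to 3149 were higher and 2348 to 3511 lower. The replicate number as a block gave 5574 calls. Same-numbered libraries at 1 and 24 hpci deviated together with a correlation of 0.282 (range over the 15 pairs of groups −0.351 to 0.282), and the labels do not say that a number marks shared fish. The genotype difference counted 7 genes with a pseudocount of 5, 6 after quantile normalization, 1 in the injured libraries alone, 1 once the replicate block entered, 11 when the adjusted p was allowed up to 0.1 and 1 to 905 with single libraries left out.

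The median of the wound matrix list turned to 0.001 with a pseudocount of 5, 0.052 without a filter or with a filter on the 4 libraries, 0.12 with a mean above 20 and 0.056 after quantile normalization, and that of lymphocyte and complement genes to 0.56 and 0.11 with a mean above 20. With single libraries left out the list medians ranged from −0.23 to 0.47 (wound matrix), −0.81 to 0.54 (lymphocyte), −0.20 to 0.00 (complement), −0.74 to 0.38 (oxidative phosphorylation), −0.73 to 0.28 (TCA cycle), −0.40 to 1.00 (ribosomal proteins), −0.21 to 0.89 (heat shock), −0.13 to 0.64 (oxidative stress) and −0.074 to 0.40 (apoptosis). Of genes not called, *myl7* turned to −0.002 with TMM factors, and *ldha* to 0.14, *mmp9* to 0.025, *col1a1a* to 0.128 and *col1a2* to 0.093 after quantile normalization. With single libraries left out *myl7* ranged from −0.71 to 0.79, *tnnt2a* from −0.64 to 0.83, *nppa* from −0.46 to 0.88, *rpl13a* from −0.42 to 0.90, *hspb1* from −0.54 to 0.91, *hbaa1* from −0.32 to 1.00, *ldha* from −0.66 to 0.63, *socs3a* from −0.86 to 0.25, *mmp9* from −0.55 to 0.52, *cxcl18b* from −0.20 to 0.45, *il11a* from −0.36 to 0.23, *tcf21* from −0.001 to 0.58, *col1a1a* from −0.297 to 0.188 and *col1a2* from −0.334 to 0.197. The cause was not tested. Over single genes and lists, 4917 of 5456 values stayed as reported, 245 lost and 18 gained a call, 233 moved and 43 changed sign. Depth limits the low genes of replicate 1 at 24 hpci, where 3 reads stand for 7.62 normalized counts.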

Other observations

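Clock genes were lower at 24 hpci. Of 34 tested, 19 fell and 1 rose (median −0.93), against 8 and 1 in the 4 libraries alone. *hlfa*, a clock output factor, had 317 and 403 normalized counts in UT ventricles, then 514 and 479 at 1 hpci and finally 84 and 87 at 24 hpci (−2.52, SE 0.23, limma adjusted p = 8.75e-05). *cry3b*, of the cryptochrome family, went from 1023 and 1189 to 393 and 298. The period genes *per2* (1040 and 1102, then 414 and 494), *per3* (569 and 678, then 218 and 325) and *per1a* (75 and 197, then 18 and 35) fell, of which *per2* alone passed in the 4 libraries, and the repressor *nr1d1* (374 and 481, then 170 and 243) lost its call there (limma adjusted p = 0.0804). *arntl2*, a Bmal relative, rose from 16 and 36 to 102 and 166. The time of day of sampling was not given.

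Of 32 interferon response genes 10 rose and 1 fell (median 0.71), against 2 and 0 in the 4 libraries alone, and 3 and 4 rose without replicate 1 at 1 and at 24 hpci. The 10 and 1 calls are 31.2% and 3.12% of the list, beside 16.9% higher and 18.0% lower among all genes tested. In the 4 libraries alone 984 of all 16643 genes rose and 918 fell. The antiviral *mxa* went from 30 and 21 to 137 and 117 and the GTPase *gbp1* from 256 and 167 to 805 and 520, while *irf7*, the factor behind the response, fell from 237 and 211 to 132 and 115, a call lost in the 4 libraries alone (limma adjusted p = 0.114). Of 35 apoptosis and p53 genes 9 rose and 7 fell, against 3 and 1 in the 4 libraries alone, and 4 rose without replicate 1 and 2 fell without replicate 2 at 1 hpci. The 9 and 7 calls are 25.7% and 20% of the list, beside 16.9% higher and 18.0% lower among all genes tested. The inflammasome genes *caspa* (22 and 31, then 409 and 275) and *pycard* (15 and 20, then 175 and 108) rose. The survival genes *xiap* (873 and 688, then 350 and 271) and *bcl2l1* (669 and 727, then 404 and 332) fell. Of 34 oxidative stress and iron genes 7 rose and 4 fell, against 2 and 0 in the 4 libraries alone, 14 and 3 without replicate 2 and 6 and 8 without replicate 1 at 24 hpci. These included *slc7a11*, the cystine importer, at 6 and 10 and then 162 and 265, *prdx1*, a peroxidase, at 50 and 70 and then 358 and 264, and *gpx4a*, which reduces lipid peroxides, at 357 and 235 and then 162 and 97. The 7 and 4 calls are 20.6% and 11.8% of this list, beside the same shares of all genes tested. For the cholesterol list, given next, the shares called were 28.6% higher and 7.14% lower. Of 28 cholesterol genes 8 rose and 2 fell, 4 rose without replicate 1 at 1 hpci, and 1 rose in the 4 libraries alone, *sqlea* of sterol synthesis (4 and 5, then 30 and 48).

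*itln1*, a lectin, had 0 and 10 normalized counts at 1 hpci and 272 and 146 at 24 hpci (log2 fold change 5.92, limma adjusted p = 0.00215), and 3 and 0 in UT ventricles.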
